A study of Mus musculus with 6 samples.

Results

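The genes described here are 10 markers of the cells that wrap brain blood vessels, and all 10 were found by symbol among the 28324 genes of the deposited table, 24078 of which had at least 1 count. The pericyte genes were Vtn, Rgs5, Kcnj8, Abcc9 and Higd1b, and the contractile genes were Acta2, Tagln, Myl9, Tpm2 and Myh11. They were followed in single cells from the hippocampus of 6 mice, 3 given an antisense oligonucleotide (ASO) and 3 given phosphate buffered saline (PBS), all 10 weeks old. Every mouse, ASO or PBS, belonged to 1 transgenic strain that models amyloid deposition, so no mouse without amyloid transgenes was compared. The title of the study refers to lowering IDOL, the ubiquitin ligase made from Mylip. PBS mice received no control oligonucleotide, so an effect of oligonucleotides as such and one of the target cannot be told apart. Mice are numbered 1 to 3 within each group in sample order, which pairs none of them.

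Mural cells line the outside of the endothelium. Pericytes sit on capillaries, share the basement membrane with endothelial cells and help to keep the blood-brain barrier closed, whereas vascular smooth muscle cells ring arteries and arterioles and set vessel diameter by contraction. The contractile genes encode parts of the actin and myosin apparatus and are classic targets of serum response factor, which binds a motif called the CArG box. Kcnj8 and Abcc9 encode the pore and the sulfonylurea receptor of an ATP-sensitive potassium channel of vascular cells, Rgs5 encodes a regulator that shortens G protein signals, Vtn encodes the adhesion protein vitronectin, and Higd1b encodes a small membrane protein of the hypoxia-inducible gene domain family. Among the contractile genes, Acta2 encodes smooth muscle alpha actin, Tagln the actin-binding protein transgelin, Myl9 a regulatory myosin light chain, Tpm2 beta tropomyosin and Myh11 the smooth muscle myosin heavy chain.

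Kcnj8 (chr6:142564837-142571614) and Abcc9 (chr6:142587862-142702315) are neighbours on the minus strand of chromosome 6 in the GENCODE annotation of GRCm38, 16247 bases apart with 0 genes between them. The bases just before the GENCODE start of 3 pericyte genes and of the contractile gene Myl9 are shown. Myl9 is printed as the only member found with a CArG box, so the display does not compare the programs by motif. Each is written 5′ to 3′ on the gene's own strand from RefSeq, build GRCm38.p6, and capitals mark a CArG box.
Rgs5 (chr1:169655251-169655500, plus strand): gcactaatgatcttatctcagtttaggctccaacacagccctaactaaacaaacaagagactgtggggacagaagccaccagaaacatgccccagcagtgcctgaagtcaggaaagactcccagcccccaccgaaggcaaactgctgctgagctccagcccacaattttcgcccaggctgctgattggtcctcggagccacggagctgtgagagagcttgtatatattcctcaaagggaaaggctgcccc
Kcnj8 (chr6:142571615-142571864, minus strand): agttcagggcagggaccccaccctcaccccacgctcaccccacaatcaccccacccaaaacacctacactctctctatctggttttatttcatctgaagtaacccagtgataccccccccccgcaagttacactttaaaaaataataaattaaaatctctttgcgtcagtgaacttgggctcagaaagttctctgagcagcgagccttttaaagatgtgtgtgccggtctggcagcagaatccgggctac
Abcc9 (chr6:142702316-142702524, minus strand): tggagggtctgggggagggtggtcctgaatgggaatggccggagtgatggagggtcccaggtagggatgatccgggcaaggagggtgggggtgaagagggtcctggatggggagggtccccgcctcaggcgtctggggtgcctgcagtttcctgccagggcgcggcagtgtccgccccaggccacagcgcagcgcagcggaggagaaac
Myl9 (chr2:156775214-156775419, plus strand): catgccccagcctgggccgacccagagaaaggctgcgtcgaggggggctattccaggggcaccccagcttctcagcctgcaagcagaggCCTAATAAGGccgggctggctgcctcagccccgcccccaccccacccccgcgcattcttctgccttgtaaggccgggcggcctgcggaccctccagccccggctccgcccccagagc
Of the 7 members with a RefSeq promoter window (250 bases before to 50 after RefSeq's start), 1, Myl9, held a CArG box, whose bases lie 117 to 108 before the GENCODE start, where the printed stretch ends. The RefSeq start can lie inside the GENCODE gene, so the windows held only 33 bases before the GENCODE start of Acta2 and 39 before that of Tpm2, against 206 for Myl9, 209 for Abcc9, 221 for Vtn and 250 each for Rgs5 and Kcnj8. The motif was searched on both strands and was present in 535 of 32851 promoter windows (1.63%). The windows of Higd1b, Tagln and Myh11 were not used here. A match is only a description of these letters, and its absence covers only this window.

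The deposited table held 12823 cells, from 569 to 1999 UMIs (unique molecular identifiers, which count captured transcripts) each, and each cell carried 1 of 17 classes named by the authors. After 207 cells called as doublets (1.61%) were removed, 12616 were left, 1751 to 2822 per ASO mouse and 1821 to 2110 per PBS mouse, with 2005768 to 3150332 UMIs per ASO mouse and 2127919 to 2433090 per PBS mouse. The class Mural held 126, 78 and 64 cells in the ASO mice and 66, 49 and 77 in the PBS mice, 460 in all (median 924 UMIs), and 8 barcodes occurred in more than 1 mouse. Mural cells bore their label in markers that are not members, with at least 1 of 6 seen in 86.5% of them. Of the 10 members, which may have helped to make the class, 5 were each seen in over 60% of mural cells. The others were seen in 17.4% (Abcc9) to 55.4% (Tagln). Endothelial markers were also present there, with at least 1 of 6 seen in 29.6% of mural cells. Markers of 2 other cell types were seen in more of them. At least 1 of 3 choroid plexus markers was seen in 78.9% of mural cells, and at least 1 of 5 oligodendrocyte markers in 56.7%. In class Endothelial those shares were 78.6% and 55.4%.

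Contractile transcripts were concentrated in class Mural, and pericyte transcripts were not. Of 12354 contractile UMIs in all classes, 11050 (89.4%) came from mural cells and 811 (6.56%) from class Endothelial. Of 11526 pericyte UMIs, 3579 (31.1%) came from mural cells and 7242 (62.8%) from the 1809 endothelial-class cells. All levels below are CPM, counts scaled to the UMI total of a class in each mouse, given as the mean of 6 mice with the SD over mice, and they are compared across classes for a gene, not between genes. How the authors made the classes is not given in the sources used here, and if these genes helped to make them, differences between classes follow in part from that, so they are given without a test.

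The 5 pericyte genes were highest in mural cells and, apart from Vtn, next highest in endothelial-class cells. Rgs5 averaged 5190 ± 1086 CPM in mural cells and 2749 ± 528 CPM in endothelial-class cells. At least 1 Rgs5 UMI was present in 69.6% of mural cells (exact 95% interval 65.1 to 73.7%) and in 62.6% of endothelial-class cells (60.3 to 64.8%), against 1.39% of astrocytes, a cell type that should lack it, at median depths of 924, 1026 and 1095 UMIs. Astrocytes had the lowest Rgs5 share of the 17 classes. Outside the vessel classes it reached 9.90% in Cajal-Retzius neurons (117 CPM) and 7.69% in the 39 choroid plexus cells. Intervals on shares of cells cover counting error only. The channel pair was sparser. Kcnj8 averaged 332 ± 81.1 CPM in mural and 118 ± 18.6 CPM in endothelial-class cells, and was seen in 19.1%, 8.84% and 0.0533% of mural cells, endothelial-class cells and astrocytes. Abcc9 averaged 259 ± 118 CPM and 103 ± 31.0 CPM in mural and endothelial-class cells, with a UMI in 17.4%, 8.46% and 1.12% of mural cells, endothelial-class cells and astrocytes. Both subunits were thus above the astrocyte share in both vessel classes. Higd1b averaged 557 ± 201 CPM in mural and 178 ± 49.7 CPM in endothelial-class cells, and was seen in 34.8%, 14.04% and 0.213% of mural cells, endothelial-class cells and astrocytes. Abcc9 overlaps the antisense gene 5330439B14Rik, and whether the counting used strand is not stated, so its counts are uncertain to that extent.

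Vtn, which averaged 1359 ± 378 CPM in mural cells, had its next level in class Fibroblast-Like and not in endothelial-class cells. Fibroblast-like cells held 546, 1364 and 528 CPM of Vtn in the ASO mice and 1036, 604 and 1780 CPM in the PBS mice, and 37.0% of the 108 cells had a UMI (27.9 to 46.9%). Mural cells exceeded them in 4 of 6 mice, by a mean of 0.58 on the log2(CPM + 1) scale (SD 0.661), so the mean difference was smaller than its SD over mice. Endothelial-class cells averaged 441 ± 115 CPM of Vtn. The other pericyte genes were low in fibroblast-like cells, apart from Rgs5 at 950 and 964 CPM in PBS mice 1 and 3, from 11 and 13 UMIs.

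The 5 contractile genes were highest in mural cells and sparse elsewhere. Acta2 averaged 8820 ± 1313 CPM in mural cells and 72.3 ± 24.6 CPM in endothelial-class cells, with a UMI in 67.4% of mural cells, 2.82% of endothelial-class cells and 0.852% of astrocytes. Myh11 averaged 4647 ± 1057 CPM and 66.5 ± 29.8 CPM in mural and endothelial-class cells, and was seen in 68.9%, 4.42% and 0.799% of mural cells, endothelial-class cells and astrocytes. Of the 5 contractile genes Myl9 was seen most often outside class Mural. It averaged 4812 ± 852 CPM there and 215 ± 46.9 CPM in endothelial-class cells, with shares of 82.4%, 15.5% and 1.70% in mural cells, endothelial-class cells and astrocytes. Tpm2 averaged 3741 ± 693 CPM and 39.8 ± 14.98 CPM, and Tagln 1534 ± 340 CPM and 14.4 ± 5.90 CPM, in mural and endothelial-class cells. Tpm2 was seen in 67.8% and 3.37%, and Tagln in 55.4% and 1.38%, of mural and endothelial-class cells. Tagln overlaps Pcsk7 and the antisense gene Gm48529, and its counts carry the same uncertainty as those of Abcc9.

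Ependymal cells, the ciliated lining of the ventricles, had the next level of Acta2. They held 561, 364 and 221 CPM in the ASO mice and 112, 50.9 and 771 CPM in the PBS mice, from 85 UMIs in all, and 25% of the 188 cells had a UMI (19.0 to 31.8%) at a median depth of 1189 UMIs. Mural cells exceeded them by 5.17 on the log2(CPM + 1) scale (SD 1.43), in 6 of 6 mice. Other contractile genes were sparse there. Myl9 averaged 103 ± 31.9 CPM in ependymal cells, Myh11 had 1 UMI, and Tpm2, Abcc9 and Higd1b had 0 UMIs, where 3 UMIs would make 12.8 CPM. Reads of close actin paralogs were few there, with 2 UMIs of Acta1, 0 of Actc1 and 2 of Actg2.

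Differences between mural cells and the class with the next level covered a wide range. They were 0.91 for Rgs5 (SD 0.361), 1.47 for Kcnj8 (SD 0.260), 1.23 for Abcc9 (SD 1.05) and 1.62 for Higd1b (SD 0.464), each against endothelial-class cells on the log2(CPM + 1) scale. Myl9 differed by 4.49 (SD 0.347) and Myh11 by 6.20 (SD 0.763) from endothelial-class cells, Tagln by 6.58 (SD 3.197) from ependymal cells and Tpm2 by 6.52 (SD 2.49) from fibroblast-like cells. Of these 8 differences, 7 were above 0 in 6 of 6 mice and that of Abcc9 in 5 of 6. The log2 ratio of contractile to pericyte UMIs gives the same contrast for whole programs. It was 1.63 ± 0.526 in mural cells, against -3.13 ± 0.242 in endothelial-class cells and -2.49 ± 1.09 in fibroblast-like cells (SD, n = 6 mice). The log2 ratio differed from that of mural cells by -1.41 in astrocytes, -1.88 in microglia and macrophages and -2.48 in oligodendrocytes. In no mouse did any of these 5 classes, the ones with at least 10 member UMIs in every mouse, exceed mural cells.

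**Figure D1:**
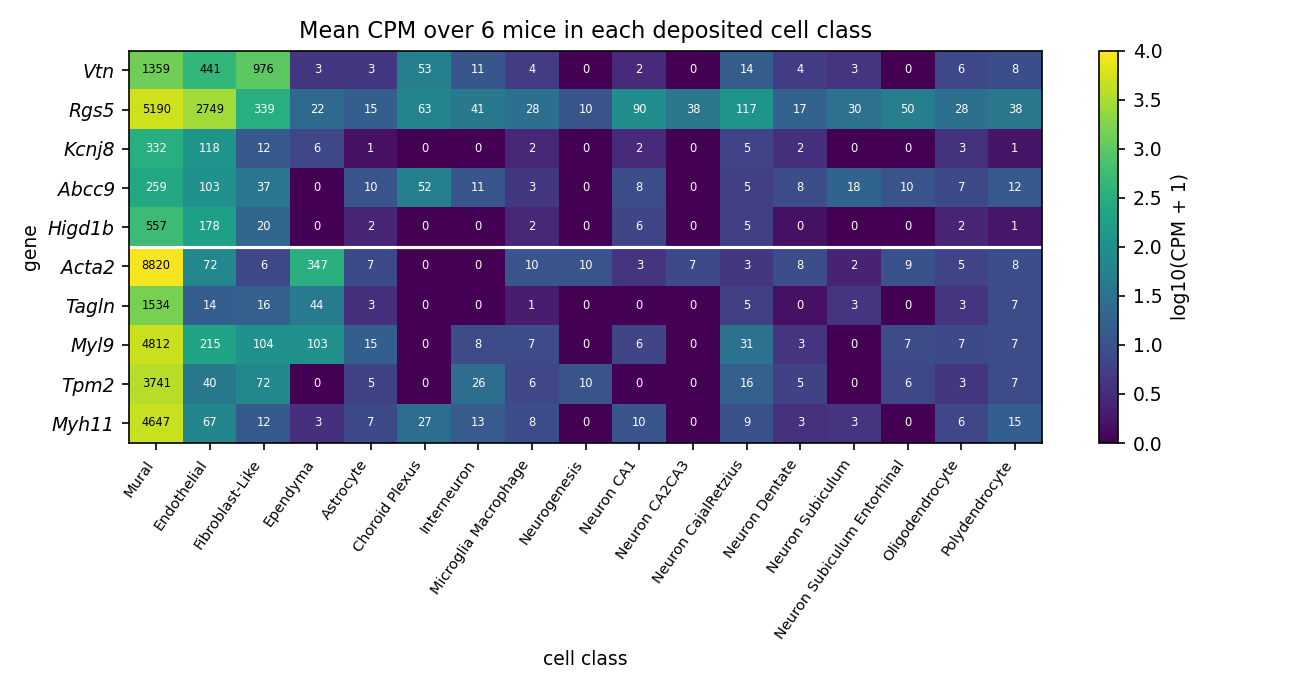
Mean CPM over 6 mice of the 10 genes in the 17 deposited classes, colored as log10(CPM + 1). The contractile genes are brightest in class Mural, with Acta2 next in Ependyma at 347 CPM, while the pericyte genes are bright in Mural and Endothelial and Vtn is also bright in Fibroblast-Like.

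Across the 17 classes, the non-member genes with the profile most like the mean of the 5 pericyte genes were Tbx2 (Pearson r 0.975), Pla1a (0.972), Gm20748 (0.967), Tbx3 (0.967) and Tinagl1 (0.964). Those most like the contractile mean were Lmod1 (0.975), Mustn1 (0.936), Mrvi1 (0.935), Gja4 (0.925) and Map3k7cl (0.925). These correlations are over 17 classes that share the same mice, and are a description of 12612 genes with at least 100 UMIs.

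Within class Mural the 2 programs were mostly detected in different cells. Joint detection was measured for each pair of genes and each mouse as a log2 odds ratio (0.5 added to each of the 4 cell counts), after every cell had been thinned at random to 569 UMIs so that deep cells could not pair genes by depth alone. The 25 cross pairs, 1 gene from each program, averaged -4.24, -3.26 and -2.28 in the ASO mice and -4.12, -3.83 and -3.88 in the PBS mice, below 0 in all 6 mice (mean -3.60 ± 0.733, exact sign-flip p = 0.03125, two-sided). The 10 contractile pairs averaged 4.49, 5.07 and 3.56 in the ASO mice and 5.61, 5.19 and 5.01 in the PBS mice (mean 4.82 ± 0.713, exact p = 0.03125). The 10 pericyte pairs averaged 4.21, 3.33 and 2.15 in the ASO mice and 3.81, 2.48 and 3.05 in the PBS mice (mean 3.17 ± 0.779, exact p = 0.03125). No mural cell lacked both programs before thinning, so a class label that rests on either program would by itself set the programs apart within the class, and its part in these odds ratios was not tested. Contractile pairs exceeded pericyte pairs in 6 of 6 mice, by 1.65 ± 0.798 (exact p = 0.03125), or by 1.09 (exact p = 0.09375) without cells holding an endothelial marker UMI. Contractile pairs exceeded cross pairs by 8.42 ± 1.35 and pericyte pairs exceeded cross pairs by 6.77 ± 1.41, in 6 of 6 mice (exact p = 0.03125 each). With 6 mice 0.03125 is the smallest p the sign-flip test can give, and Benjamini-Hochberg adjustment over the 6 tests left it at 0.03125.

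Pairs within a program differed. The strongest contractile pair was Acta2 with Myh11, at 6.68 (SD 1.51 over mice), and the weakest was Tagln with Myl9, at 3.53. Of all 460 mural cells, not thinned, 298 held both Acta2 and Myh11, 12 held Acta2 alone, 19 held Myh11 alone and 131 held neither. The strongest pericyte pair was Vtn with Rgs5, at 4.73. Every mural cell with Vtn but 1 also held Rgs5: 193 cells had both, 1 had Vtn alone and 127 had Rgs5 alone. The channel subunits Kcnj8 and Abcc9 were paired at 2.71 (SD 1.29). Abcc9 was seen in 53.4% of the 88 cells with Kcnj8, and in 8.87% of the cells without it, and Rgs5 was present in 88 of 88 cells with Kcnj8 and 80 of 80 cells with Abcc9. All 25 cross pairs were below 0 in the mean, from -5.20 for Vtn with Acta2 to -1.43 for Higd1b with Myl9, and 24 of them were below 0 in every mouse. Of the 88 cells with Kcnj8, 8 also held Acta2.

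**Figure D2:**
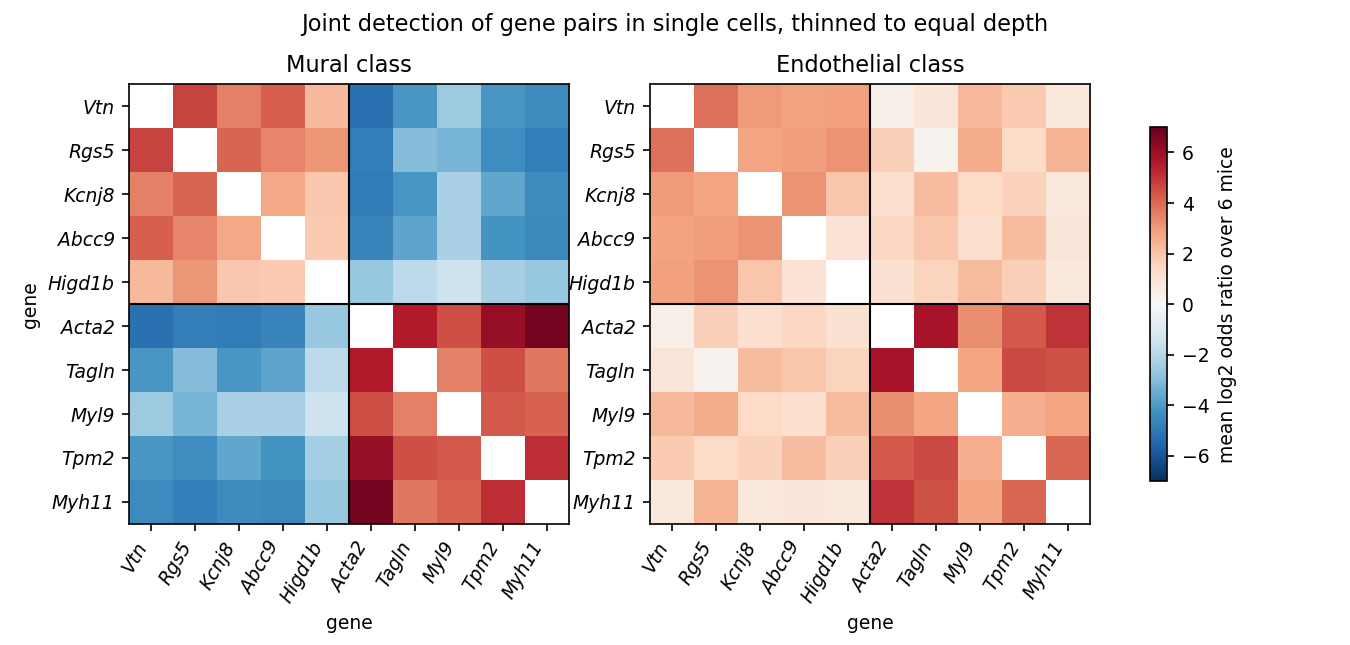
Mean log2 odds ratio of joint detection for each pair of the 10 genes, thinned to 569 UMIs per cell, in class Mural (left) and class Endothelial (right). In mural cells pairs within a program are positive and all 25 cross pairs are negative (-5.20 to -1.43), whereas in endothelial-class cells the cross pairs lie at 0.22 to 2.603. The constant added to each cell count can by itself lift sparse pairs above 0.

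Summed UMIs showed the same separation without any threshold on single genes. In 128 of 460 mural cells (27.8%) at least 10 contractile UMIs came with 0 pericyte UMIs, and 41 cells had at least 10 pericyte UMIs with 0 contractile UMIs. Contractile UMIs per cell were split, with 294 cells at 10 or more, 150 cells under 5 and 16 cells from 5 to 9. At least 10 UMIs of both programs were present in 34 cells (7.39%), which had a median of 1341.5 UMIs and a median doublet score of 0.0406, against 924 UMIs and 0.0211 over all mural cells. The part of doublets in those 34 cells was not tested.

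**Figure D3:**
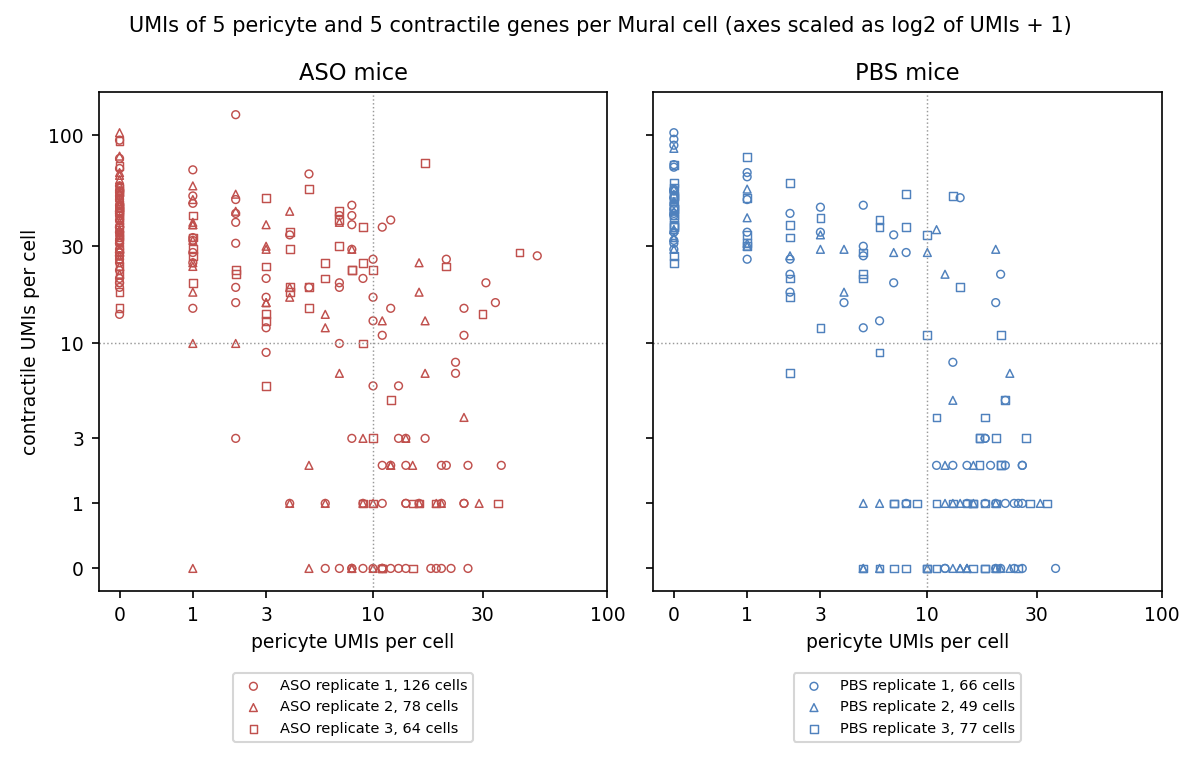
Pericyte UMIs (x) and contractile UMIs (y) of each mural cell on log2(UMIs + 1) axes, ASO mice left and PBS mice right, with dotted lines at 10 UMIs. Cells are densest near the 2 axes, and 34 cells lie on or above both lines.

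Mural cells were then called contractile-rich or pericyte-rich when, of the members seen in the cell, at least 2 genes of that program were present and more UMIs came from it than from the other. There were 287 contractile-rich cells (77, 55 and 51 in the ASO mice, 39, 24 and 41 in the PBS mice) and 163 pericyte-rich cells (45, 20 and 12 in the ASO mice, 25, 25 and 36 in the PBS mice), and 10 cells were neither. The boundary is a range: 18 cells had program UMIs that differed by 3 or fewer. As the members made the groups, their levels in them are a description. Contractile-rich cells had a median of 34 contractile and 1 pericyte UMIs, and 44.6% had no pericyte UMI. Pericyte-rich cells had a median of 1 contractile and 15 pericyte UMIs, and 34.4% had no contractile UMI.

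The genes of each program were not equally private to it. Rgs5 was seen in 51.6% of contractile-rich and 100% of pericyte-rich cells, and it made up 83.4% and 61.1% of their pericyte UMIs. Kcnj8 was seen in 0.697% of contractile-rich and 52.1% of pericyte-rich cells. Abcc9 was close to it, at 1.74% and 46.0% of contractile-rich and pericyte-rich cells, so of the 5 pericyte genes the 2 channel genes were seen least in contractile-rich cells. Vtn was seen in 11.8% and 96.3%, and Higd1b in 18.1% and 65.6%, of contractile-rich and pericyte-rich cells. On the contractile side Myl9 was shared most, with a UMI in 98.3% of contractile-rich and 55.2% of pericyte-rich cells. Acta2 was seen in 99.3% and 10.4%, and Tagln in 85.0% and 4.91%, of contractile-rich and pericyte-rich cells. Tpm2 had 97.9% and 15.3%, and Myh11 98.3% and 19.0%, of those cells, so of the 5 contractile genes Myl9 alone was seen in over 20% of pericyte-rich cells.

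Other genes, not used to make the groups, followed the split. Contractile-rich cells were set against pericyte-rich cells of the same mouse with edgeR's quasi-likelihood test on counts summed per mouse and group, with a term for the mouse. Of 582 genes tested, 42.4% were called, 128 (22%) higher and 119 (20.4%) lower in contractile-rich cells, at a Benjamini-Hochberg adjusted p under 0.05. Of a list of 15 further smooth muscle genes, 12 passed the filter on low counts and all 12 rose, with a median log2 fold change of 2.98, against 0.066 over all 582 genes. A gene low in pericyte-rich cells passes that filter only through the contractile-rich cells, so the count and the adjusted p of such genes are a description. Setting genes with 0 UMIs in a group at the bound given by 3 UMIs left that median at 2.98.

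Among those genes Pln encodes phospholamban, which restrains the calcium pump of the sarcoplasmic reticulum. It ran from 969 to 1441 CPM over 6 mice in contractile-rich cells, against 0 to 30.7 CPM in pericyte-rich cells. Its pooled ratio was 199-fold (counting interval 35.5 to 7883) from 389 UMIs against 1 UMI (edgeR adjusted p = 6.3e-14). Cnn1, which encodes calponin, an inhibitor of actin-activated myosin, had 118 UMIs in contractile-rich and 0 in pericyte-rich cells, at least 20.1-fold higher against a floor of 3 UMIs over the group. Lmod1, which encodes the actin nucleator leiomodin, had a median of 1417 CPM over mice in contractile-rich and 86.8 CPM in pericyte-rich cells (log2 fold change 3.88, SE 0.29, edgeR adjusted p = 7.35e-13). These 3 genes were higher in contractile-rich cells in 6 of 6 mice without overlap. Mylk, which encodes the kinase of the myosin light chain, rose by 2.39 on the log2 scale, Tpm1 by 2.92, Crip1 by 3.02, Flna, encoding filamin, by 2.93, Actn1, encoding alpha actinin, by 3.22, and Des, encoding desmin, by 2.15. Cald1, encoding caldesmon, rose by only 0.55 (SE 0.09, edgeR adjusted p = 9.38e-06). Further genes with large rises were Errfi1 (5.05), Palld (4.44), Nexn (4.27), Csrp1 (4.23), Crispld2 (4.002), Rasl11a (3.85), Mustn1 (3.71) and Sorbs2 (3.55).

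Of 15 further pericyte genes, 7 passed the filter, 4 fell in contractile-rich cells, where 20.4% of all 582 genes did, and the other 3 were not called. A gene low in contractile-rich cells passes that filter only through the pericyte-rich cells, so this count and the adjusted p of such genes are a description. Pdgfrb, the receptor through which pericytes are recruited, had 91.8 to 327 CPM in contractile-rich and 472 to 1328 CPM in pericyte-rich cells (log2 fold change -2.18, SE 0.22, edgeR adjusted p = 6.96e-10). Atp13a5, a P-type ATPase, fell by 4.72 on the log2 scale (SE 0.30, adjusted p = 2.17e-14 in edgeR), and Art3 by 3.73. Ifitm1 had 2 UMIs in contractile-rich and 74 in pericyte-rich cells, a ratio of 72.3 (counting interval 19.3 to 608) in favour of pericyte-rich cells. The 3 not called were Notch3, Cspg4 and Rgs4. Notch3, a receptor of mural cells, stood at -0.55 on the log2 scale (edgeR adjusted p = 0.0686), Cspg4, which encodes the proteoglycan NG2, -0.50 (0.0786) and Rgs4 0.19 (0.375). Ptn, which encodes the growth factor pleiotrophin, ran from 20.5 to 113 CPM in contractile-rich and 2941 to 4846 CPM in pericyte-rich cells (log2 fold change -5.73, SE 0.22, edgeR adjusted p = 5.26e-20). Of 8 potassium channel and G protein partner genes, Gnai2 (-0.44) and Gnaq (-0.36) were tested and neither was called (edgeR adjusted p 0.285 and 0.165). Of those not tested, Pde3a had 79 UMIs in contractile-rich and 10 in pericyte-rich cells (261 and 64.4 CPM). Adcy5 had 36 and 3 UMIs (119 and 19.3 CPM), and Ednra 36 and 20 (119 and 129 CPM). Abcc8 had 0 and 1, and Agtr1a 1 and 0. Kcnj11, which encodes the other pore subunit of such channels, had 0 UMIs.

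Endothelial markers moved with the same split. At least 1 of 6 endothelial markers was seen in 9.06% of contractile-rich and 65.0% of pericyte-rich cells, and their summed level was 307 CPM and 4356 CPM. It ran from 22.1 to 727 CPM over mice in contractile-rich and 1704 to 5776 CPM in pericyte-rich cells, and none of the 6 was at 0 in either group. Flt1, an endothelial receptor of vascular endothelial growth factor, fell by 3.54 on the log2 scale (SE 0.31, adjusted p = 1.72e-11 in edgeR) and Itm2a by 4.27 (SE 0.30). In class Endothelial the summed level was 11310 to 12788 CPM. Fibroblast-like markers separated the groups too, with 6 genes summing to 80.7 to 401 CPM over mice in contractile-rich and 417 to 1363 CPM in pericyte-rich cells, where Col1a1 was at 0 in contractile-rich and Lum in pericyte-rich cells. The part of endothelial and fibroblast-like transcripts in the lower genes was not tested, and leaving out mural cells with an endothelial marker left only 2 mice with 10 cells of each group.

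**Figure D4:**
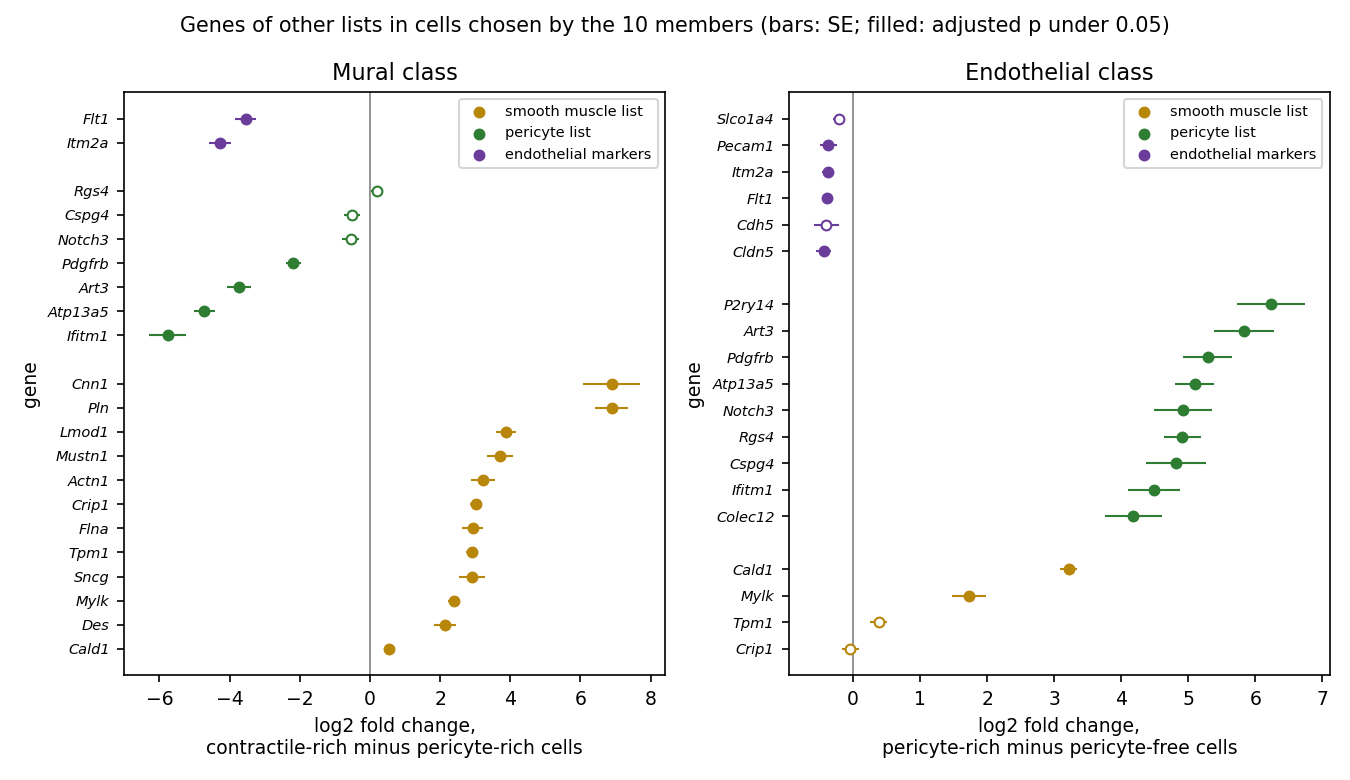
Log2 fold changes with SE of the further smooth muscle, pericyte and other listed genes in contractile-rich minus pericyte-rich mural cells (left) and in pericyte-rich minus pericyte-free endothelial-class cells (right), filled where the edgeR adjusted p was under 0.05. Left, 12 of 12 smooth muscle genes lie above 0 and 4 of 7 pericyte genes are filled below 0. Right, 9 of 9 pericyte genes lie at 4.18 or higher.

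Because most pericyte UMIs lay in class Endothelial, its cells were examined too, a comparison added after the data were seen. With the 5 pericyte genes, 483 of 1809 endothelial-class cells were pericyte-rich and 656 had no pericyte UMI, while 20 were contractile-rich. All 483 pericyte-rich cells held an endothelial marker UMI. They had a median of 1208 UMIs and a median doublet score of 0.0211, against 897 UMIs and 0.0139 in the pericyte-free cells, and the part of depth and doublets was not tested. Thinned to 569 UMIs, pericyte pairs in class Endothelial had a log2 odds ratio of 2.74 ± 0.734 and contractile pairs of 3.96 ± 0.518, above 0 in 6 of 6 mice (exact p = 0.03125 each). Pericyte pairs exceeded cross pairs by 1.3003 ± 0.567 and contractile pairs exceeded them by 2.51 ± 0.688 (exact p = 0.03125 each). Contractile pairs exceeded pericyte pairs by 1.21 ± 0.742 (exact p = 0.03125), or by 0.53 (exact p = 0.09375) without thinning. The cross pairs averaged 2.004, 1.37 and 1.55 in the ASO mice and 1.20, 1.67 and 0.863 in the PBS mice, above 0 in all 6 mice (exact sign-flip p = 0.03125). Adding 0.5 to each cell count can lift a sparse pair above 0 without any cell that holds both genes. Its part in the odds ratios of this class was not tested, so they alone do not show that genes of different programs shared cells. Counted directly without thinning, 219 of the 483 pericyte-rich cells held a contractile UMI, as did 20 of the 656 pericyte-free cells. Myl9 made up 69.9% of the contractile UMIs in the pericyte-rich cells. Cells with UMIs of both programs were thus present, and the part of depth and doublets in them was not tested. All 25 cross pairs had a mean above 0, and 14 of them were above 0 in every mouse.

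Non-member pericyte genes were higher in the pericyte-rich cells of class Endothelial. Of 2195 genes tested with edgeR and a term for the mouse, 8.52% were called, 108 (4.92%) higher and 79 (3.6%) lower than in pericyte-free cells. Of the 15 further pericyte genes, 9 passed the filter on low counts and all 9 rose, with a median log2 fold change of 4.93, against 0.0016 over all 2195 genes, a description for the same reason as above. Pdgfrb had a median of 350 CPM over mice, from 238 to 423, in pericyte-rich cells, against 0 to 17.3 CPM in pericyte-free cells (log2 fold change 5.29, SE 0.36, edgeR adjusted p = 5.82e-17). The receptor gene P2ry14 had 116 UMIs in pericyte-rich and 1 in pericyte-free cells, a ratio of 127 (counting interval 22.4 to 5072). Notch3 (4.93), Rgs4 (4.91), Cspg4 (4.81), Atp13a5 (5.10) and Zic1 (4.73) rose by like amounts on the log2 scale. Of 4 smooth muscle genes tested, Cald1 (3.21) and Mylk (1.73) rose, and Tpm1 (0.38, edgeR adjusted p = 0.0641) and Crip1 (-0.04, edgeR adjusted p = 0.923) were not called.

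The endothelial markers were present in both groups, and 4 of the 6 fell in the pericyte-rich cells. Flt1 had 3182 to 4016 CPM in pericyte-rich and 4293 to 5589 CPM in pericyte-free cells (log2 fold change -0.39, SE 0.07, edgeR adjusted p = 5.44e-05). Cldn5, which encodes a tight junction protein, fell by 0.44 on the log2 scale (adjusted p = 0.00623 in edgeR), Itm2a by 0.38 (adjusted p = 0.000739) and Pecam1 by 0.37 (adjusted p = 0.0489). In 12 other settings Pecam1 was called in 1, Cldn5 in 9, and Flt1 and Itm2a in 11 each. Slco1a4 (-0.22) and Cdh5 (-0.40) were not called (edgeR adjusted p 0.132 and 0.223). Fibroblast-like markers also separated the groups, at 243 to 323.2 CPM over mice in pericyte-rich and 15.6 to 66.0 CPM in pericyte-free cells, with Lum at 0 in the pericyte-free cells. Of them Igf2, which encodes an insulin-like growth factor, rose by 3.55 on the log2 scale (edgeR adjusted p = 3.99e-10), and the part of that cell type was not tested. The count of 79 lower genes was 9 with DESeq2, 14 without the mouse term and 47 without PBS mouse 3.

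ASO and PBS mice were compared on counts summed per mouse. In class Mural none of the 10 members was called by edgeR among 1559 genes tested, of which 4 (0.257%) were. DESeq2 called 0 members, and 3 members had an unadjusted p under 0.05, Vtn, Abcc9 and Higd1b, where 8.08% of all genes had. In summed counts, fewer cells of a type and less RNA per cell cannot be told apart. All 5 pericyte genes had a log2 fold change below 0 (median -0.57), as did 50.1% of all genes, and all 5 contractile genes one above 0 (median 0.24), as did 49.9% of all genes. The median over all genes was -0.00078. In 4 of the 10, Vtn, Abcc9, Higd1b and Acta2, the ASO and PBS mice did not overlap, where 12.3% of all genes did not.

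Higd1b had 465, 381 and 369 normalised CPM in the ASO mice and 562, 866 and 688 in the PBS mice (-0.75 as a log2 fold change, SE 0.243, edgeR adjusted p = 0.279). Abcc9 had 249, 118 and 139 normalised CPM in the ASO mice and 361.4, 401 and 280 in the PBS mice (-0.93, SE 0.327, edgeR adjusted p = 0.321). Vtn had 1372, 1183 and 708 normalised CPM in the ASO mice and 1686, 1457 and 1745 in the PBS mice (-0.57, SE 0.217, edgeR adjusted p = 0.417). In these 3 genes every ASO mouse was below every PBS mouse, and the differences did not pass the adjusted threshold. Acta2 had 9306, 10656 and 9789 normalised CPM in the ASO mice and 8298, 7347 and 7526 in the PBS mice (0.36, SE 0.207, edgeR adjusted p = 0.750), with every ASO mouse above every PBS mouse. Rgs5 overlapped, with 5672, 3206 and 4910 normalised CPM in the ASO mice and 5460, 6207 and 5667 in the PBS mice (-0.33, SE 0.217, edgeR adjusted p = 0.821). Kcnj8 (-0.35), Tagln (0.16), Myl9 (0.23), Tpm2 (0.24) and Myh11 (0.39) also overlapped, with edgeR adjusted p from 0.740 to 0.932.

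Of the further smooth muscle genes, 14 were tested in class Mural, 12 lay above 0 (median 0.24) and 0 were called. Of the further pericyte genes, 10 were tested, 4 lay above 0 and 6 below (median -0.21), and 0 were called. The summed endothelial markers also separated the groups in class Mural, at 514 to 1642 CPM in the ASO mice and 1906 to 2813 CPM in the PBS mice. When the mural cells with an endothelial marker UMI were left out (324 cells kept), the 9 members still tested all changed sign. This left out 65.0% of pericyte-rich but only 9.06% of contractile-rich mural cells. Higd1b then stood at 0.21, Rgs5 at 0.27, Vtn at 0.003 and Acta2 at -0.06 on the log2 scale, each with an edgeR adjusted p of 0.999613.

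The composition of class Mural was compared by cell counts as well. Contractile-rich cells made up 59.5%, 69.2% and 78.1% of mural cells in the ASO mice and 59.1%, 49.0% and 51.9% in the PBS mice, after thinning. The means were 69.0 ± 9.30% and 53.3 ± 5.197% in ASO and PBS mice (SD, n = 3 each), 15.6 percentage points apart, with no overlap (exact permutation p = 0.1, two-sided). With 3 mice against 3 there are 20 assignments, and 0.1 is the smallest p they can give. The log2 ratio of contractile to pericyte UMIs was 1.52, 2.44 and 2.08 in the ASO mice and 1.45, 1.07 and 1.22 in the PBS mice (2.01 ± 0.462 and 1.25 ± 0.191, exact permutation p = 0.1). ASO mouse 1 was close to PBS mouse 1 in both measures. Neither separation held without cells that had an endothelial marker UMI, a setting chosen after the data were seen. Before thinning, that setting leaves out 65.0% of pericyte-rich and 9.06% of contractile-rich mural cells, so it is not neutral to this comparison. Contractile-rich cells were then 72.9%, 82.8% and 83.02% of 96, 58 and 53 mural cells in the ASO mice and 84.1%, 80.8% and 76.6% of 44, 26 and 47 in the PBS mice, -0.92 points apart (exact permutation p = 0.8). The log2 ratio was then 2.43 ± 0.621 in ASO and 2.70 ± 0.276 in PBS mice, a difference of -0.26 (exact permutation p = 0.5). Called without thinning, contractile-rich mural cells were 2.73%, 2.62% and 2.91% of all cells in the ASO mice and 2.14%, 1.19% and 1.94% in the PBS mice (exact permutation p = 0.1). Pericyte-rich cells of both vessel classes, also without thinning, were 4.57%, 4.86% and 3.198% of all cells in the ASO mice and 4.72%, 7.25% and 6.02% in the PBS mice, and these overlapped (exact permutation p = 0.2). After thinning, pericyte-rich cells made up 16.5%, 22.3% and 14.2% of endothelial-class cells in the ASO mice and 21.0%, 25.6% and 22.2% in the PBS mice, which also overlapped (exact permutation p = 0.3). Red cell markers, which no mural cell should make, ran from 75.6 to 7866 CPM in the ASO mice and 21.8 to 7931 CPM in the PBS mice in class Mural, with no separation of the groups. Choroid plexus markers were at 99.0 CPM in PBS mouse 3 and 2503 to 6287 CPM in the other 5 mice. None of the 5 microglial markers was at 0 in the class, and they separated the groups, at 48.3 to 119 CPM in the ASO mice and 21.8 to 40.3 CPM in the PBS mice. They were sparse, at 53.5 CPM over all mural cells, where 3 UMIs make 6.42 CPM. The part of these 3 lists in the levels was not tested.

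Members were also compared within each group of mural cells. In contractile-rich cells 0 of 10 members separated ASO from PBS mice, where 11.1% of 835 genes with at least 60 UMIs did. Among the members Vtn (57 UMIs), Abcc9 (6) and Kcnj8 (2) had fewer than 60 UMIs. Acta2 had 14013, 14540 and 11515 CPM there in the ASO mice and 13508, 14006 and 13180 CPM in the PBS mice, which overlap. In pericyte-rich cells 2 of 10 members separated the groups, where 12.8% of 335 genes with at least 60 UMIs did. Here Acta2 (46 UMIs), Tpm2 (34) and Tagln (9) had fewer than 60 UMIs. Higd1b had 1104, 834 and 852 CPM in the ASO mice and 1133, 1470 and 1296 CPM in the PBS mice. Myl9 had 1202, 1612 and 1108 CPM in the ASO mice and 914, 854 and 827 CPM in the PBS mice. The microglial list also separated the groups in these cells (55.6 to 85.2 CPM in the ASO mice, 0 to 47.4 CPM in the PBS mice), from very few UMIs. Its level over all these cells was 38.7 CPM, where 3 UMIs make 19.3 CPM, and its part was not tested. In pericyte-rich cells of class Endothelial 1 of 10 members, Myl9, separated the groups, where 9.14% of 2178 genes with at least 60 UMIs did. There Myh11 (43 UMIs), Acta2 (38), Tpm2 (37) and Tagln (5) had fewer than 60 UMIs. Myl9 had 529, 524 and 503.9 CPM in the ASO mice and 289, 478 and 494 CPM in the PBS mice. The oligodendrocyte list also separated the groups in these cells, at 765 to 1019 CPM in the ASO mice and 633 to 744 CPM in the PBS mice. So did 2 sparse lists, macrophage (28.9 to 49.4 CPM in ASO, 0 to 20.2 CPM in PBS mice) and ependymal (0 CPM in ASO, 6.73 to 13.8 CPM in PBS mice). The part of these lists was not tested. No test was made on these levels, and whether the difference between treatments depends on the group of cells was not tested.

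**Figure D5:**
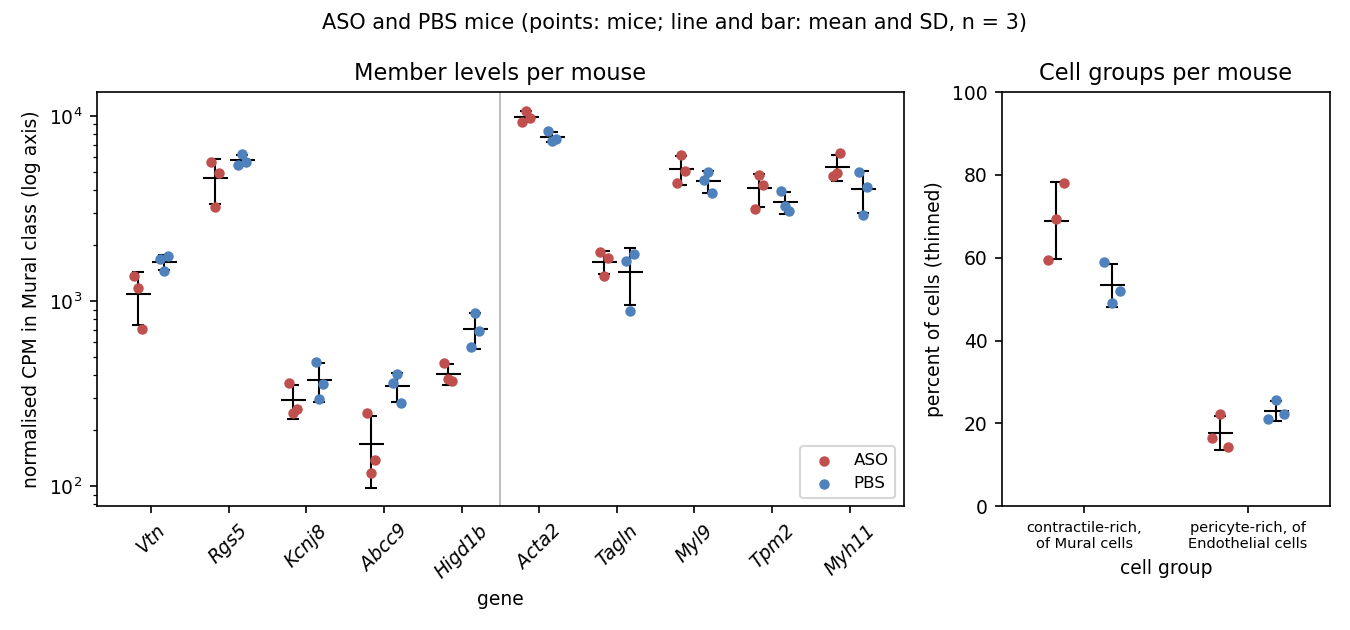
Normalised CPM of the 10 genes in class Mural for each mouse on a log axis, ASO left of PBS, and the percent of mural cells that were contractile-rich and of endothelial-class cells that were pericyte-rich (points are mice, line and bar the mean and SD). Vtn, Abcc9, Higd1b and Acta2 do not overlap between ASO and PBS mice. Contractile-rich cells are 59.5 to 78.1% of mural cells in ASO mice and 49.0 to 59.1% in PBS mice. That separation is lost without cells that held an endothelial marker UMI, a setting that leaves out mostly pericyte-rich cells.

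In class Endothelial 9 of the 10 members were tested among 6220 genes and 0 were called (edgeR called 0% of all genes, DESeq2 0 genes), with 2 of the 9 at an unadjusted p under 0.05, where 4.1% of all genes were. Rgs5 had 2283, 2574 and 2232 normalised CPM in the ASO mice and 2592, 3311 and 3503 in the PBS mice (-0.41 as a log2 fold change, edgeR adjusted p = 0.9997), with every ASO mouse below every PBS mouse. Kcnj8 (-0.32) did not overlap either, so 2 of 9 members did not, where 9.53% of all genes did not. Vtn (-0.42) and Higd1b (-0.39) overlapped between the groups.

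Over all cells 0 of 10 members were called among 14002 genes, of which 1 (0.00714%) was, and DESeq2 called 0 members. An unadjusted p under 0.05 was found for 7 of 10 members, where 4.1% of all genes had one. Acta2 had 391, 371 and 334 normalised CPM in the ASO mice and 305, 169 and 273 in the PBS mice (0.56, SE 0.171, edgeR adjusted p = 0.998416). Every ASO mouse was above every PBS mouse. All 5 contractile genes lay above 0, as did 50.1% of all genes, and all 5 pericyte genes below 0, as did 49.9%. Acta2, Myl9 (0.38), Vtn (-0.38) and Higd1b (-0.45), 4 of 10, did not overlap, where 9.03% of all genes did not. The sums include all mural cells, which were 4.46%, 3.72% and 3.66% of all cells in the ASO mice and 3.62%, 2.43% and 3.65% in the PBS mice (exact permutation p = 0.1).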

How the data were processed

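Hippocampal cells of 6 amyloid transgenic mice, whose full strain name is not reported here, were profiled by Drop-Seq, in which cells share droplets with barcoded beads and the 3' ends of transcripts are counted. The authors deposited 1 table of raw counts of UMIs per gene and cell, whose column names, per the file headers, give the mouse and a cell class. The tools named, per the submitters' processing notes, are STAR 2.5.0c and bcl2fastq, with GRCm38 and mm10 as builds. What program and annotation were used for counting, and whether strand was used, is not given in the sources used here. Deposited cells had at least 501 genes and at most 14.99% mitochondrial UMIs.

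Doublets were called per mouse with Scrublet in scanpy 1.11.5 and removed. Nothing says whether they had been removed before deposit. Counts were summed per mouse and class, or per mouse and group of cells where at least 10 cells were present, and tested with edgeR 4.0.16 in R 4.3.3 (quasi-likelihood, TMM, filterByExpr, Benjamini-Hochberg adjustment over all genes tested, threshold 0.05). DESeq2 1.42.0 was an alternative. A difference between classes is on the log2(CPM + 1) scale. Odds ratios used cells thinned to 569 UMIs, the lowest total. So did the contractile-rich share of mural cells and the pericyte-rich share of endothelial-class cells. Shares of all cells and shares of cells with a UMI were not thinned. Single values were tested with exact sign-flip tests over 6 mice or exact permutation of 3 against 3, which measure the spread between these mice. Scripts were tested on simulated data, with 1 fixed dispersion of 0.05 that was not estimated from these data. Changes were put only in genes with at least 60 UMIs, and the shares called are of those that passed the filter. The shares hold for those settings only. There edgeR called 47.2% of 2-fold changes in mural sums, 29.2% in endothelial-class sums and 35.7% in sums over all cells. It called 100%, 93.3% and 98.96% of 4-fold changes in the same sums. A member not called between ASO and PBS mice is thus not shown to be unchanged. Other settings were no filter on low counts, other gene minimums, no thinning, doublets kept, a term for 3 sets of mice, cells without endothelial or mural markers, and each mouse left out.

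Genes named were the 10 members, the fixed lists of smooth muscle, pericyte and channel partner genes, up to 12 called genes with the largest change in each direction, and the 5 most alike in pattern. The members and lists were chosen with earlier results of these data known. Gene coordinates were from GENCODE, GRCm38, and promoter windows from RefSeq, GRCm38.p6.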

Additional observations from a re-analysis of the deposited data

Results flagged for a closer look

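Of 27 sets of per-mouse values examined, 2 held a mouse far from the other mice, where chance gives about 1 in 20. The excess of contractile over cross pairs in the log2 odds ratio of mural cells was 5.84 in ASO mouse 3, lower than in the other 5 mice. The excess of mural over fibroblast-like cells in Tpm2, on the log2(CPM + 1) scale, was 11.55 in PBS mouse 3, which had 0 Tpm2 UMIs in its 11 fibroblast-like cells.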

How the results depend on the processing

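No paired analysis was possible because the labels pair no mice, which were numbered in sample order only. A term for 3 sets of 1 ASO and 1 PBS mouse, a pairing formed after seeing the data from their mt-Rnr2 and mt-Cytb levels, left 0 members called in each comparison. Without the mouse as a replicate block, 14 genes in place of 79 were lower in pericyte-rich endothelial-class cells, and DESeq2 gave 9 lower and 68 higher. With no filter on low counts 267 genes were higher there, and 471 higher and 187 lower in contractile-rich mural cells.

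Contractile minus pericyte pairs fell short of the threshold in mural cells without endothelial markers (1.09, exact p = 0.09375) and in endothelial-class cells not thinned (0.53, exact p = 0.09375). Without the most abundant gene of each program, the log2 ratio relative to mural cells was -1.74 in astrocytes, -3.90 in endothelial-class cells, -4.84 in fibroblast-like cells, -1.59 in microglia and macrophages and -2.55 in oligodendrocytes, the same direction. The causes were not tested.

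Leaving out each mouse leaves 5, for which 0.0625 is the smallest exact p, and no direction changed in the joint detection, next class and class ratio values. The ranges in mural cells were 8.16 to 8.94 for contractile minus cross, 1.44 to 1.92 for contractile minus pericyte, 4.66 to 5.07 for contractile, -3.87 to -3.47 for cross, 6.44 to 7.24 for pericyte minus cross and 2.96 to 3.38 for pericyte pairs. In endothelial-class cells they were, in that order, 2.34 to 2.69, 1.07 to 1.44, 3.80 to 4.08, 1.33 to 1.56, 1.19 to 1.51 and 2.52 to 2.91. For mural cells minus the next class they were 0.83 to 1.03 for Rgs5, 1.38 to 1.52 for Kcnj8, 0.97 to 1.54 for Abcc9, 1.53 to 1.79 for Higd1b, 0.43 to 0.74 for Vtn, 4.76 to 5.55 for Acta2, 5.75 to 7.26 for Tagln, 4.40 to 4.62 for Myl9, 5.51 to 6.82 for Tpm2 and 5.91 to 6.35 for Myh11. For the log2 ratio minus that of mural cells they were -1.52 to -1.23 in astrocytes, -4.84 to -4.64 in endothelial-class cells, -4.45 to -3.90 in fibroblast-like cells, -2.25 to -1.74 in microglia and macrophages and -2.58 to -2.34 in oligodendrocytes. The genes lower in pericyte-rich endothelial-class cells numbered 47 (without PBS mouse 3) to 69. Leaving out each mouse gave differences between ASO and PBS mice of 11.04 to 20.3 points in the contractile-rich share, -7.57 to -3.51 points in the pericyte-rich endothelial-class share and 0.55 to 1.01 in the log2 ratio, and 0 to 14 (without ASO mouse 2) genes called in class Mural, where 4 were called with all mice.

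Without mural cells with endothelial markers, the difference between ASO and PBS mice was -0.92 points in the contractile-rich share and -0.26 in the log2 ratio of programs, both reversed. That setting leaves out mostly pericyte-rich cells. Log2 fold changes of members between ASO and PBS mice changed sign as follows. Mural values were then 0.0029 for Vtn, 0.27 for Rgs5, 0.24 for Kcnj8, 0.21 for Higd1b, -0.065 for Acta2, -0.20 for Tagln, -0.20 for Myl9, -0.17 for Tpm2 and -0.019 for Myh11. Mural Tagln was -0.064 without PBS mouse 2 (up to 0.36 without another mouse). In endothelial-class cells Abcc9 was -0.22 without cells with mural markers, -0.27 without ASO mouse 2 and -0.15 without PBS mouse 2 (up to 0.36 without another). Acta2 was 0.25 without cells with mural markers. Myl9 was -0.0017 with no filter, -0.0046 with doublets kept, -0.16 without ASO mouse 2 and -0.17 without PBS mouse 1 (up to 0.19 without another). Tpm2 was 0.070 without ASO mouse 1 and 0.069 without PBS mouse 3 (down to -0.58 without another). Over all cells Abcc9 was 0.016 without PBS mouse 3 (down to -0.29 without another) and Tagln -0.0049 without PBS mouse 2 (up to 0.55). Contractile-rich against pericyte-rich cells without endothelial markers was not run, with too few cells in 4 of 6 mice. Mural sums of 45862 to 124155 UMIs per mouse limit the precision for Kcnj8 and Abcc9.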
